A study of Homo sapiens with 8 samples.

Results

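The genes described here encode the subunits of the mitochondrial respiratory chain and ATP synthase that are made from nuclear DNA. A probe set was taken when its only gene symbol in the platform annotation was NDUFA, NDUFB, NDUFC, NDUFS or NDUFV followed by a digit (complex I), SDHA to SDHD (complex II), a symbol starting with UQCR or CYC1 (complex III), COX followed by 4 to 8 (complex IV), or a symbol starting with ATP5F1, ATP5M or ATP5P (complex V). This rule found 187 probe sets for 82 genes, of 49395 probe sets on the array. A single symbol was given to 44988 of these, for 18132 genes. Complex I was represented by 35 genes, complex II by 3, complex III by 9, complex IV by 17 and complex V by 18. Genes of these complexes without a probe set of a single symbol were not analysed here.

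Expression was measured in 3 groups of 2 arrays each, all of human hepatocellular carcinoma lines. Huh7.5.1 cells were treated for 48 h with 10 µM CU27, a compound known here only by this code name. Huh7.5.1 cells kept for 48 h in DMSO, the solvent, were their control. Hep3B cells kept for 48 h in DMSO formed the remaining group, and the labels number the arrays of each group as biological replicates. Both columns of CU27-treated Hep3B cells were left out because they equalled linear functions of the Hep3B DMSO columns to a tolerance of 1e-06. Such a relation can be solved in either direction, so the values alone do not show which Hep3B columns were measured. The Hep3B DMSO arrays were used as labelled, and their spread enters the error of the main fit in both comparisons. The series asked which transcripts differ between CU27-treated and DMSO-treated cells.

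Complexes I and II pass electrons from NADH and succinate to ubiquinone, complex III passes them on to cytochrome c, and complex IV reduces oxygen to water. Complexes I, III and IV pump protons across the inner mitochondrial membrane, and complex V, the ATP synthase, uses the returning protons to make ATP. A few core subunits of complexes I, III, IV and V are encoded by mitochondrial DNA, so the nuclear genes have to be expressed alongside them. Hepatocytes are rich in mitochondria, whereas several subunits of complex IV exist as isoforms restricted to muscle, lung or testis.

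The deposited values were on a log2 scale, on which a difference of 1 is a doubling. They compare the same probe set between arrays and not 1 gene with another. Replicate arrays of a group correlated with a Pearson r of 0.991 to 0.994 over the probe sets. Of the listed hepatocyte genes 8 were tested, among them ALB, the gene of serum albumin, which read 14.11 to 14.44 over the arrays. The leukocyte genes PTPRC and CD3E, the fibroblast genes COL1A1, COL1A2, DCN and ACTA2, the endothelial genes PECAM1, VWF and CDH5 and the muscle genes MYH7, ACTN2 and MB were below the floor for testing, log2 6.11, in all 3 groups. In each of these lists other genes reached the floor in at least 1 group. PDGFRB, listed for fibroblasts, read 6.32 to 6.73 over the 6 arrays, and KDR, listed for endothelium, 5.74 to 6.18. Of the leukocyte and blood list LYZ, a lysozyme gene, read 11.44 and 10.57 in Huh7.5.1 cells with CU27, 11.86 and 11.83 in Huh7.5.1 cells in DMSO, and 8.09 and 7.36 in Hep3B cells. CD14 was below the floor in both Huh7.5.1 groups and read 6.70 and 6.51 in Hep3B cells. HBB, a globin gene, read 7.71 and 7.74 in Huh7.5.1 cells with CU27, 7.71 and 7.86 in Huh7.5.1 cells in DMSO, and 6.38 and 6.58 in Hep3B cells. CKM, the muscle creatine kinase, reached the floor in Hep3B cells alone, with 7.78 and 7.26. In RNA from whole cultures, fewer cells of a type and less RNA per cell cannot be told apart.

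Promoter sequence was available for 66 of the 82 genes, from RefSeq on GRCh38.p14. Motifs were searched on both strands in the window of 250 bases before to 50 bases after the start of each gene. The NRF1 motif was held by 16 of the 66 genes (24.2%), against 6.98% of 27305 RefSeq genes. A gene with several starts was counted when any of its windows held the motif. Core ETS letters, CCGGAAG, as bound by the factor GABP, were found in 20 genes (30.3%), against 12.2% of all genes. The YY1 motif AAGATGGC was found in 11 genes (16.7%), against 3.52% of all genes. At least 1 of these motifs was present in 39 genes (59.1%), against 20.0% of all genes. NRF1, GABP and YY1 are transcription factors long studied as regulators of respiratory chain genes. A match of letters is not evidence of binding.

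The 250 bases before the start are shown for 4 genes that passed the test with CU27, chosen because they hold a motif and come from 4 different complexes, in 3 cases with higher and in 1 case (ATP5F1C) with lower signal. Capitals mark the NRF1 motif in SDHA, UQCRC1 and ATP5F1C and the ETS motif in NDUFS3. Each sequence reads 5′ to 3′ on the gene's strand, from chr5:218070-218319 (plus strand) for SDHA, chr3:48609647-48609896 (minus strand) for UQCRC1, chr11:47578824-47579073 (plus strand) for NDUFS3 and chr10:7787927-7788176 (plus strand) for ATP5F1C.
SDHA: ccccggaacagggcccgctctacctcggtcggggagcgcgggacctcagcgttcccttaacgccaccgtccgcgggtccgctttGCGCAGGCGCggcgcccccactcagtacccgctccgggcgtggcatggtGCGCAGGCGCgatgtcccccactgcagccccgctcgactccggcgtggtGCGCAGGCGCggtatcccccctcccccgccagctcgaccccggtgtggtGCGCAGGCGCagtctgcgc
UQCRC1: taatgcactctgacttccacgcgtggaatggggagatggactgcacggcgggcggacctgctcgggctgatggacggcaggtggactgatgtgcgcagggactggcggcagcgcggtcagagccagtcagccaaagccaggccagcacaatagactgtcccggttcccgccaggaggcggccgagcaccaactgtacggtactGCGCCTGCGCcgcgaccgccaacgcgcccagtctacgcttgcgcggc
NDUFS3: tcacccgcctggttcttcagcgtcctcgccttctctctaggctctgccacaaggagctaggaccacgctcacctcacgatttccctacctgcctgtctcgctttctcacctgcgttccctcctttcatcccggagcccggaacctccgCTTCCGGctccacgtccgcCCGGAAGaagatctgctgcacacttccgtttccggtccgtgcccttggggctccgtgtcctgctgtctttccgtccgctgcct
ATP5F1C: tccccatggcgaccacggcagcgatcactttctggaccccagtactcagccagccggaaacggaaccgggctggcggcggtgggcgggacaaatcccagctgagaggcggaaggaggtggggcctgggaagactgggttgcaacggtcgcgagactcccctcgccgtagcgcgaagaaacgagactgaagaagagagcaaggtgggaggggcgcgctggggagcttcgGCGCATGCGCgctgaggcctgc
The SDHA stretch held the NRF1 motif 4 times, at bases -166 to -157, -117 to -108, -68 to -59 and -19 to -10 before the start, each on the opposite strand. UQCRC1 held it at -47 to -38 and ATP5F1C at -22 to -13. NDUFS3 held the ETS letters at -102 to -96, there on the opposite strand, and at -83 to -77. The motif leaves a base free. Read on the strand that matches the motif, SDHA and UQCRC1 held the same letters, and ATP5F1C differed from them at the free base. Of the 10 genes past the CU27 test that had a promoter sequence, 8 held at least 1 of the motifs, as did 31 of the 56 other genes with a promoter sequence. COX7A2L and NDUFV2 were the 2 that held none.

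CU27 left most respiratory chain transcripts within a narrow range of their DMSO level in Huh7.5.1 cells. Of the 77 genes that reached the floor in at least 1 group and were tested, 8 rose and 3 fell by limma with Benjamini-Hochberg adjustment at a threshold of 0.05. That is 14.3% of the members tested, while 24.7% of all 11383 genes tested passed (12.6% higher and 12.1% lower). The median difference, CU27 minus DMSO, was 0.02 for the members and 0.02 for all genes. The median size of the difference regardless of sign was 0.11 for the members and 0.27 for all genes. The median SE of the difference was also smaller, 0.10 for the members and 0.16 for all genes. The members also read brighter, with mean log2 signals of 11.22 and 11.28 in the DMSO arrays, against 8.39 and 8.40 for all genes. The part of the SE and of the signal level in the smaller size was not tested. The largest changes among the members were a rise of 0.66 and a fall of 0.61, and no member reached a difference of 1, against 686 of all genes tested. The CU27 and DMSO arrays did not overlap for 35 of the 77 members (45.5%), against 63.9% of all genes.

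Of the 77 genes, 75 were at or above the floor in all 3 groups, with no group mean of these under 8.77. The other two, COX6A2 and COX6B2, reached it in Hep3B cells alone. COX4I2, COX7A1, COX7B2, COX8C and ATP5MGL stayed below the floor in all groups and were not tested. For the 66 tested members that did not pass, the differences ran from -0.35 to 0.46, and their 95% intervals reached from -0.67 to 0.80 at the widest. In 60 of these 66 the whole interval lay within 0.5 log2 units of 0, so changes above that size were outside the interval for those genes.

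**Figure D1:**
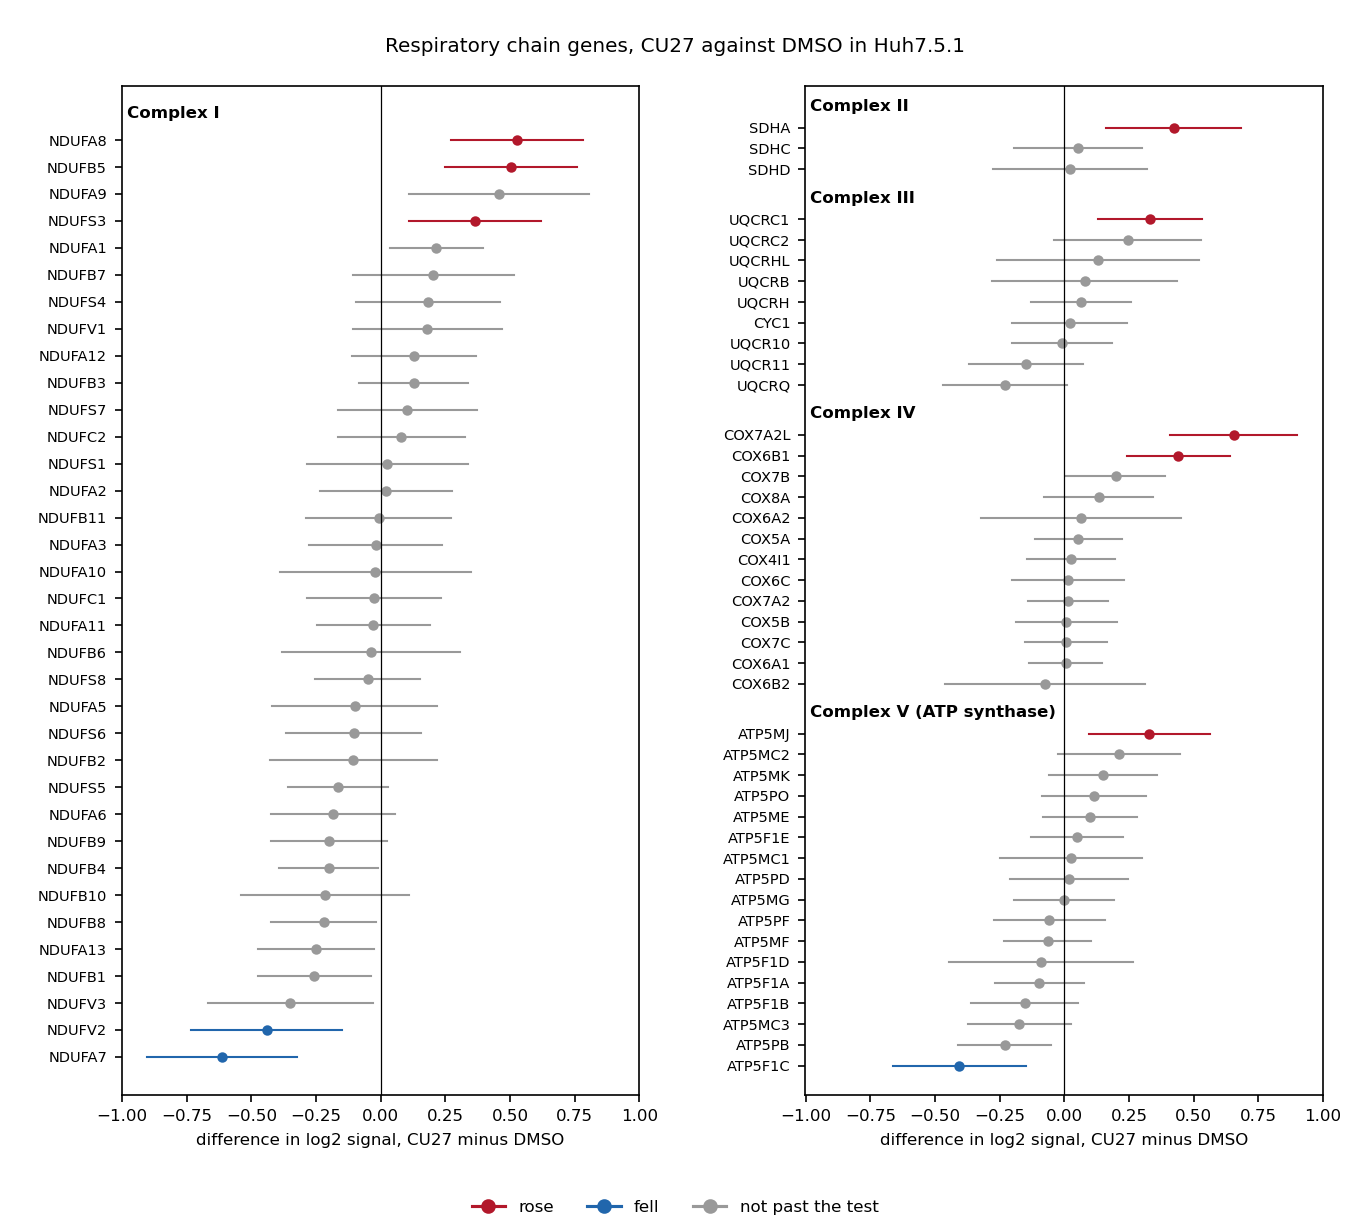
Difference in log2 signal between CU27-treated and DMSO-treated Huh7.5.1 cells for the 77 respiratory chain genes tested, by complex. Points are limma estimates from 2 arrays a group, bars are 95% intervals, red marks the 8 genes that rose, blue the 3 that fell and grey the 66 that did not pass. Most points lie close to 0 in every complex.

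The median differences of the complexes with CU27 lay close to 0. In complex I, 3 of 35 genes rose and 2 fell, with a median difference of -0.03. Complex II had 1 rise among 3 genes and a median of 0.05. Complex III had 1 rise among 9 genes and a median of 0.06. In complex IV, 2 of 13 genes rose and none fell, with a median of 0.03, and the alternatives gave medians from -0.00 to 0.09. Complex V had 1 rise and 1 fall among 17 genes, with a median of -0.00. Averaged over the tested members, the mean log2 signal of complex I was 10.88 and 10.93 in the CU27 arrays, against 10.88 and 10.95 in the DMSO arrays. For complex II it was 10.69 and 10.56 in the CU27 arrays, against 10.47 and 10.46 in the DMSO arrays, and for complex III 11.45 and 11.48 in the CU27 arrays, against 11.38 and 11.44 in the DMSO arrays. For complex IV it was 11.48 and 11.43 in the CU27 arrays, against 11.33 and 11.34 in the DMSO arrays, a mean that includes the 2 genes that rose. The means of complexes II, III and IV did not overlap between the groups, while those of complex I did. In complex II the mean includes SDHA, which rose. Its 2 membrane anchors averaged 10.96 and 10.78 in the CU27 arrays, against 10.82 and 10.85 in the DMSO arrays, and overlapped. The gap in complex III was narrow, with 11.451 as the lower CU27 mean and 11.441 as the higher DMSO mean. Of all single genes tested, 63.9% did not overlap in this comparison. Complex V averaged 11.86 and 11.93 in the CU27 arrays, against 11.88 and 11.95 in the DMSO arrays, and these did overlap.

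COX7A2L showed the largest rise. Also called SCAF1, COX7A2L is a relative of a complex IV subunit and links complex III to complex IV in supercomplexes. Its signal was 11.52 and 11.56 in the CU27 arrays, against 10.94 and 10.82 in the DMSO arrays. The groups did not overlap, and the difference was 0.66 ± 0.11 (SE, n = 2 arrays a group; adjusted p = 0.00393), or 1.57-fold. Its second probe set also passed the test, with a difference of 0.77. COX7A2 itself, the widely expressed form, differed by 0.02 with a 95% interval from -0.14 to 0.17. A direct test of COX7A2L against COX7A2 was not made.

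COX6B1, a subunit on the outer face of complex IV that bridges the dimer, was the other rise in complex IV. It read 12.71 and 12.92 in the CU27 arrays, against 12.38 and 12.35 in the DMSO arrays. The CU27 arrays were both higher, by 0.44 ± 0.09 (adjusted p = 0.00819). Other complex IV genes stayed close to their DMSO level. COX4I1, the regulatory subunit that binds ATP, read 12.31 and 12.35 in the CU27 arrays, against 12.29 and 12.32 in the DMSO arrays, with an interval of the difference from -0.15 to 0.20. COX5A, COX5B, COX6A1, COX7B and COX8A differed by 0.05, 0.01, 0.01, 0.20 and 0.13, and none of these 5 passed the test.

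In complex I, 1 of 5 genes of the module that reduces ubiquinone rose, as did 1 of 9 of the proximal and 1 of 11 of the distal membrane arm. Both falls were among the 10 genes of the module that oxidises NADH. Among all genes tested 12.6% were higher and 12.1% lower. These are few calls, and a difference between modules was not tested. NDUFA8, a subunit on the intermembrane side of the membrane arm, read 11.52 and 11.36 in the CU27 arrays, against 11.00 and 10.82 in the DMSO arrays. It rose by 0.53 ± 0.11 (adjusted p = 0.0110) and the groups did not overlap. NDUFB5, an accessory subunit of the distal membrane arm, read 10.81 and 10.69 in the CU27 arrays, against 10.31 and 10.18 in the DMSO arrays. It rose by 0.50 ± 0.11 (adjusted p = 0.0129), again without overlap. A second NDUFB5 probe set differed by 0.45 and did not pass the test.

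NDUFS3 is a core subunit of the peripheral arm next to the path of electrons to ubiquinone. Its signal was 10.21 and 10.34 in the CU27 arrays, against 9.91 and 9.91 in the DMSO arrays. The rise of 0.37 ± 0.11 was close to the threshold (adjusted p = 0.0432) and the groups did not overlap. NDUFA9, which sits in the same module, had a larger estimate and a wider error. It read 10.15 and 10.52 in the CU27 arrays, against 9.80 and 9.95 in the DMSO arrays, a difference of 0.46 ± 0.15 that did not pass (adjusted p = 0.0585).

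NDUFA7, an accessory subunit of the peripheral arm, showed the largest fall of all members. It read 9.74 and 9.66 in the CU27 arrays, against 10.21 and 10.42 in the DMSO arrays. The CU27 arrays were both lower, and the gene fell by 0.61 ± 0.13 on the log2 scale (adjusted p = 0.0100), or 1.53-fold. NDUFV2, which carries an iron-sulphur cluster next to the NADH site, read 11.76 and 11.88 in the CU27 arrays, against 12.07 and 12.45 in the DMSO arrays. It fell by 0.44 ± 0.13 (adjusted p = 0.0354), with no overlap between groups but a wide gap between the DMSO arrays. The only NDUFV2 probe set is of a type that can bind related sequences. NDUFV1, which binds NADH and flavin, differed by 0.18 with an interval from -0.11 to 0.47. NDUFS1, the iron-sulphur subunit that follows it in the path of electrons, differed by 0.03 with an interval from -0.29 to 0.34.

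SDHA, the flavoprotein of complex II that oxidises succinate, read 10.16 and 10.12 in the CU27 arrays, against 9.76 and 9.68 in the DMSO arrays. It rose by 0.42 ± 0.12 (adjusted p = 0.0279) without overlap. Its probe set is of a type that can bind related sequences, and SDHA has near-identical pseudogenes, so the gene of origin is uncertain. A second SDHA probe set rose by 0.49. The membrane anchors SDHC and SDHD differed by 0.05 and 0.02, with intervals from -0.20 to 0.30 and from -0.28 to 0.32.

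UQCRC1, a core protein of complex III, read 12.41 and 12.54 in the CU27 arrays, against 12.10 and 12.19 in the DMSO arrays. The rise was 0.33 ± 0.09 (adjusted p = 0.0271), while its other two probe sets differed by 0.09 and 0.19 and did not pass. CYC1, cytochrome c1, differed by 0.02 with an interval from -0.20 to 0.24.

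In the ATP synthase 1 gene of the rotor passed downwards and 1 small membrane subunit upwards. ATP5F1C, the gamma subunit that forms the central stalk, read 10.83 and 10.88 in the CU27 arrays, against 11.13 and 11.39 in the DMSO arrays. It fell by 0.41 ± 0.11 (adjusted p = 0.0316) without overlap, while its other two probe sets differed by -0.09 and -0.18 and did not pass. ATP5MJ, a small proteolipid of the membrane part, read 10.94 and 11.08 in the CU27 arrays, against 10.64 and 10.71 in the DMSO arrays. Its rise of 0.33 ± 0.10 was the closest to the threshold (adjusted p = 0.0477). The catalytic head did not pass the test: ATP5F1A differed by -0.10 with an interval from -0.27 to 0.08, and ATP5F1B by -0.15 with an interval from -0.36 to 0.05.

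**Figure D2:**
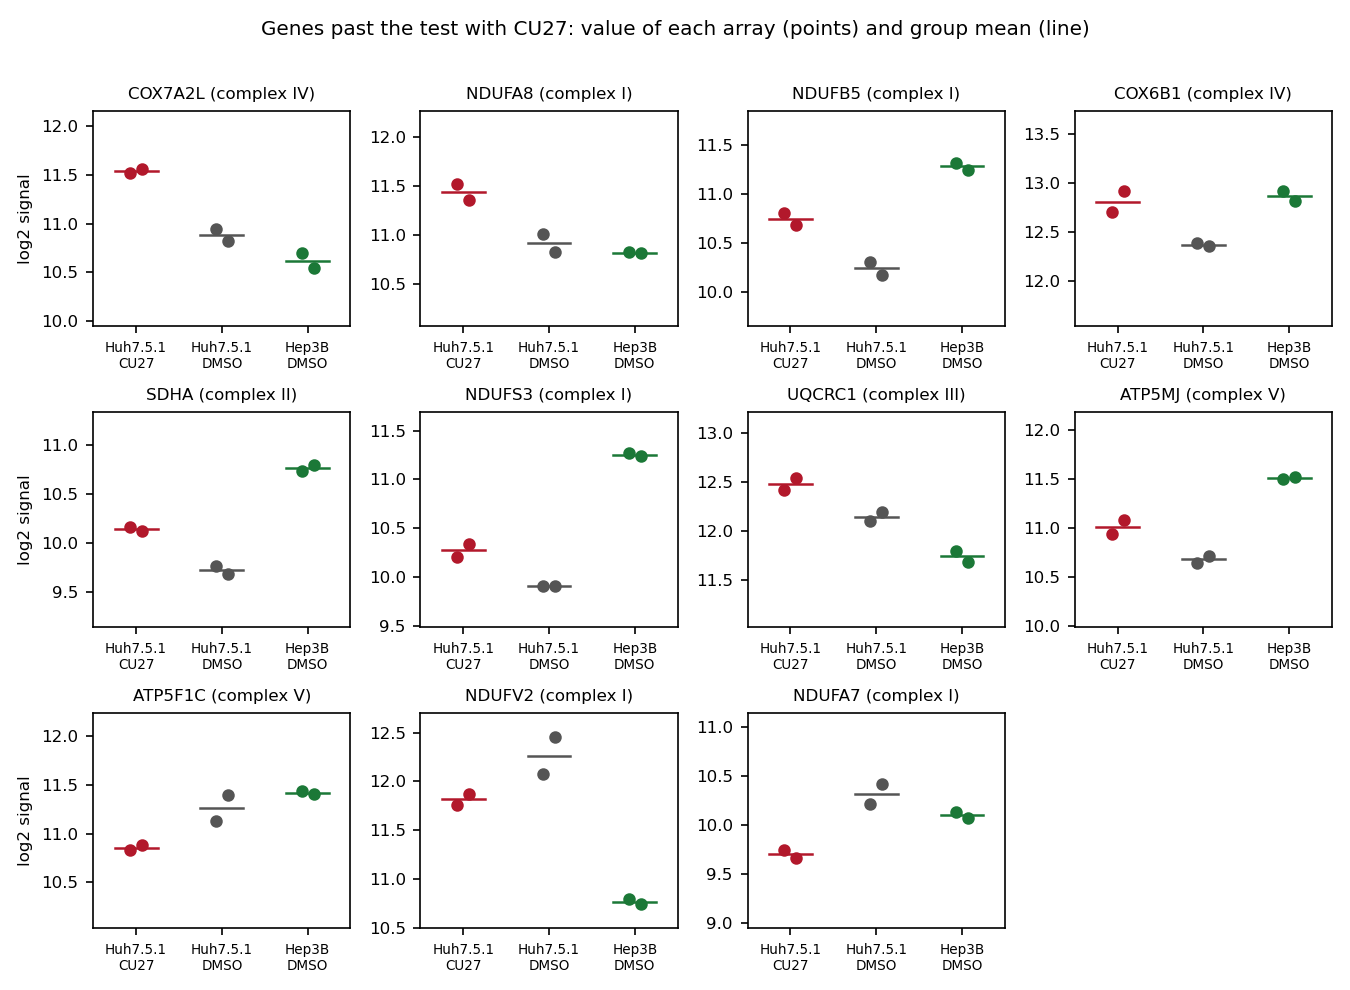
Log2 signal in each array for the 11 genes that passed the CU27 test. Points are the 2 arrays of a group and lines the group means, for Huh7.5.1 with CU27 (red), Huh7.5.1 in DMSO (grey) and Hep3B in DMSO (green), and every panel spans the same range. COX7A2L is highest with CU27, whereas NDUFB5, SDHA, NDUFS3 and ATP5MJ are highest in Hep3B cells.

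How firmly these calls stood differed between genes. Over the alternative settings run for each gene, COX7A2L passed in all 16, with adjusted p-values from 0.00224 to 0.0432. NDUFA7 was lost in 1, NDUFA8 and NDUFB5 in 2 and COX6B1 in 3 of 16. UQCRC1 was lost in 6, ATP5F1C in 8, NDUFS3 in 11 and ATP5MJ in 13 of 16. NDUFV2 was lost in 7 and SDHA in 9 of 15. Without the second Huh7.5.1 DMSO array, 1 gene rose and 0 fell, and COX7A2L was the gene that remained. Without the second CU27 array 4 rose and 2 fell, without the first DMSO array 4 rose and 3 fell, and without either Hep3B array 5 rose and 1 fell. Every 1 of the 11 genes kept its sign in the alternatives. On single probe sets, 9 rose and 6 fell of 160 tested (9.38%), against 21.7% of the 25602 probe sets tested. Some of these belong to genes counted above as not past the test. For NDUFV3, 2 of 3 probe sets fell, with differences of -0.67 and -0.57, while the brightest had -0.35 and did not pass. NDUFA13 had 1 probe set that fell (-0.33) and NDUFA1 had 1 that rose (0.37).

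Some hepatocyte genes passed the test in the same comparison. Of 8 tested, 3 fell and none rose: TTR by 0.94, APOB by 1.28 and SERPINA1 by 0.66 on the log2 scale. That is 37.5% of these 8 genes, against 24.7% of all genes tested that passed in either direction. The mean log2 signal of the 8 was 12.97 and 12.55 in the CU27 arrays, against 13.29 and 13.38 in the DMSO arrays. The part of this shift in the respiratory chain values was not tested.

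More respiratory chain genes passed the test between the lines in DMSO than with CU27. The difference is given as Huh7.5.1 minus Hep3B, both in DMSO. On the deposited scale 24 of the 77 members were higher and 22 lower in Huh7.5.1 cells, 59.7% in all. Among all genes tested 64% passed (41% higher and 22.9% lower), so the members' share was close to the background. The 22 include COX6B2, which was tested only because it reached the floor in Hep3B cells. Arrays of the lines did not overlap for 69 members (89.6%), against 84.8% of all genes.

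The scale between the lines bears on the direction. The median difference of all genes tested was 0.22 in favour of Huh7.5.1 cells, and no source used here gives the rule that scaled the arrays. The members' median was -0.05 on the deposited scale and -0.27 relative to that of all genes. With each array centred on its median over the genes tested, 16 members were higher and 36 lower, against a background of 31.6% higher and 30.8% lower among all genes. With arrays centred over all probe sets 9 were higher and 45 lower, and after quantile normalization 17 were higher and 34 lower. The shares of all genes higher and lower under these scalings are not given here. Over these 4 scalings 9 members were higher and 22 lower throughout, COX6B2 of complex IV again among the lower. Those 31 genes comprised 6 higher and 10 lower in complex I, 1 lower in complex II, 1 higher and 4 lower in complex III, 3 lower in complex IV, and 2 higher and 4 lower in complex V. Among the higher ATP5PB, and among the lower NDUFB4, UQCRB and ATP5MJ, changed direction with the mean of all probe sets of a gene. The share of all genes that kept a call under all 4 scalings is not given here, so these counts have no background.

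RNA measures differed between the lines too. The ACTB 3′ minus 5′ control difference, which grows when cDNA is short of the 5′ end, was 0.94 and 1.06 in Huh7.5.1 cells in DMSO, against 2.28 and 1.60 in Hep3B cells. In the CU27 arrays it was 0.98 and 1.21. The part of this in the differences between lines was not tested. In addition, 1077 probe sets held exactly the same value in both Hep3B DMSO columns, a coincidence found for 0 probe sets in the other 14 pairs of arrays. Only 1 of these was a member, ATP5MGL, which was not tested.

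Every complex held genes that differed in both directions on the deposited scale, on which 41% of all genes tested were higher and 22.9% lower. On the deposited scale, complex I had 9 genes higher and 10 lower of 35, with a median of -0.11 that was -0.33 relative to all genes and turned to 0.048 with the mean of all probe sets of a gene. Complex II had 1 higher and 1 lower of 3. Complex III had 4 higher and 4 lower of 9, with a median of -0.17, or -0.40 relative to all genes, which turned to 0.47 with the mean of all probe sets. Complex IV had 4 higher and 3 lower of 13, with a median of 0.14, or -0.08 relative to all genes. Without the tissue-restricted isoforms, COX6B2 among them, its counts were 4 higher and 2 lower of 11. Complex V had 6 higher and 4 lower of 17, with a median of 0.15, or -0.08 relative to all genes. Centred over the genes tested, complex I had 7 higher and 18 lower, complex II 1 and 1, and complex III 3 and 5. Complex IV then had 1 and 5, and complex V 4 and 7, against 31.6% higher and 30.8% lower among all genes. Over all 4 scalings, complexes II and IV kept only lower genes.

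**Figure D3:**
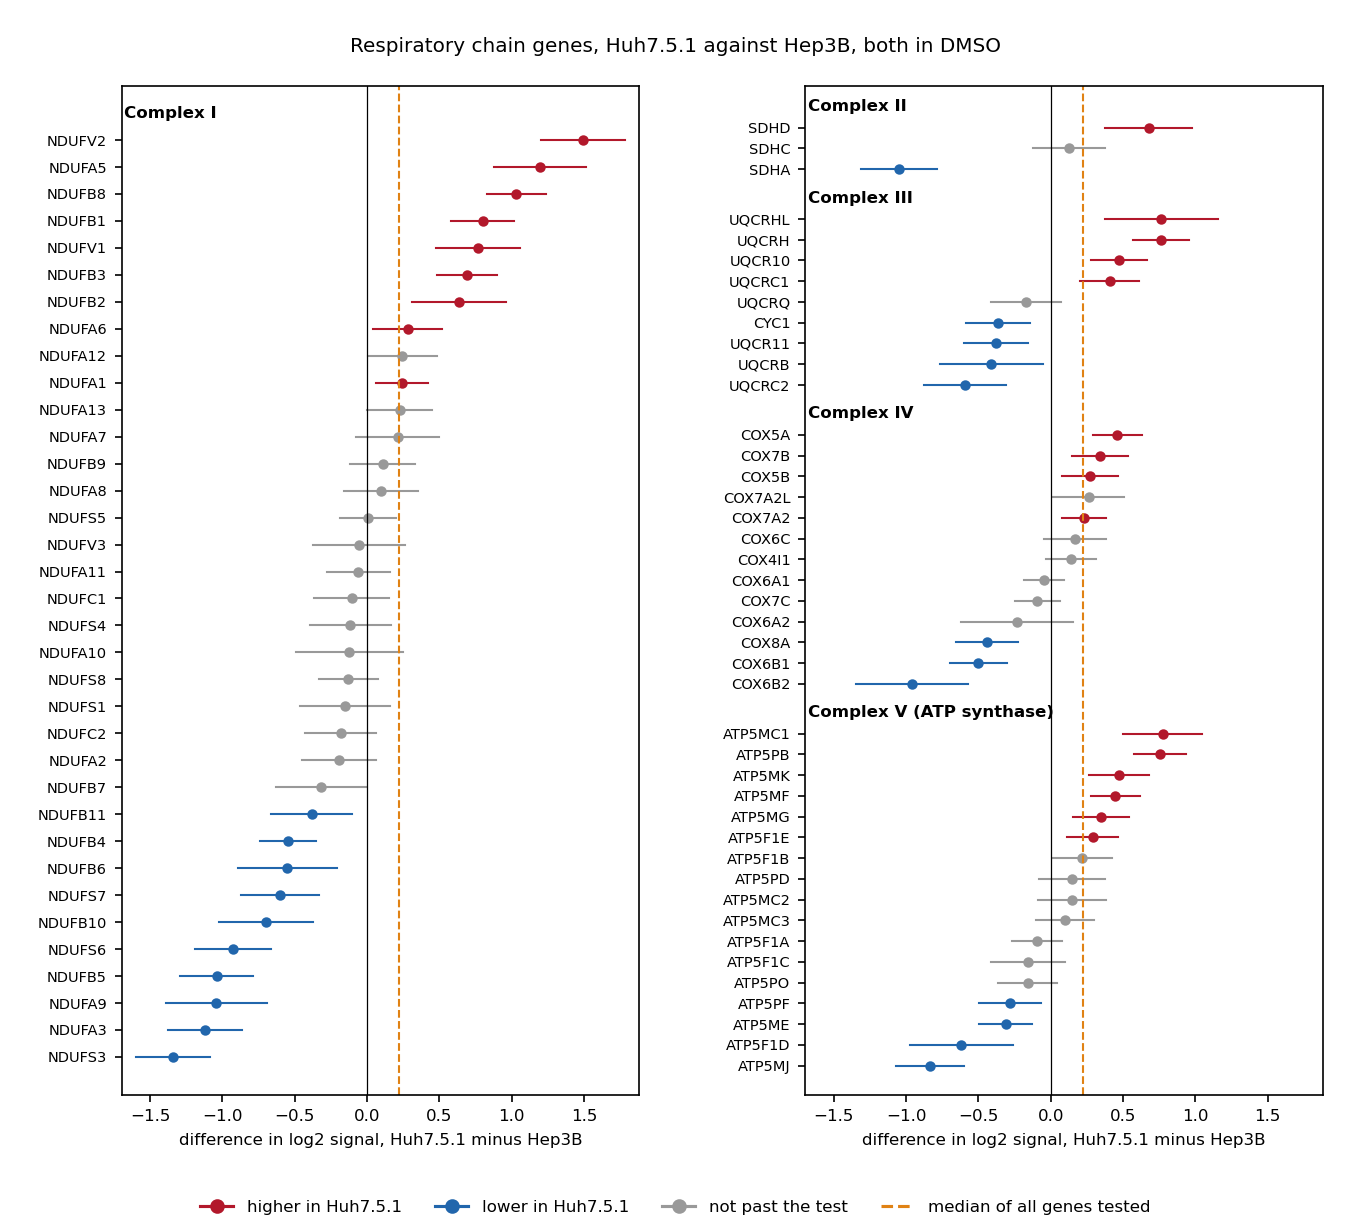
Difference in log2 signal between Huh7.5.1 and Hep3B cells, both in DMSO, for the 77 genes tested, by complex. Points are limma estimates from 2 arrays a group, bars are 95% intervals, red and blue mark genes higher and lower in Huh7.5.1 cells, and the dashed line is the median of all genes tested, 0.22. The points run from -1.34 for NDUFS3 to 1.49 for NDUFV2, both in complex I.

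Complex I held the largest differences in both directions. NDUFV2 read 12.07 and 12.45 in Huh7.5.1 cells, against 10.79 and 10.74 in Hep3B cells. The lines did not overlap, and the difference was 1.49 ± 0.13 (adjusted p = 1.52e-05), or 2.81-fold. NDUFA5, an accessory subunit of the ubiquinone module, read 9.84 and 10.09 in Huh7.5.1 cells, against 8.84 and 8.71 in Hep3B cells, and was higher by 1.19 ± 0.14. NDUFB8, a distal membrane arm subunit often used as a marker of assembled complex I, read 12.17 and 12.28 in Huh7.5.1 cells, against 11.18 and 11.21 in Hep3B cells, and was higher by 1.03 ± 0.09. NDUFV1 was also higher, by 0.77 ± 0.13. NDUFV2 and NDUFA5 each had a single probe set, of a type that can bind related sequences.

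NDUFS3 went the other way. It read 9.91 and 9.91 in Huh7.5.1 cells, against 11.27 and 11.24 in Hep3B cells. The lines were far apart, with a difference of -1.34 ± 0.11 (adjusted p = 1.28e-05), or 2.54-fold. NDUFA3, a small membrane arm subunit, read 10.80 and 11.03 in Huh7.5.1 cells, against 12.03 and 12.03 in Hep3B cells, a difference of -1.12 ± 0.11. NDUFA9 read 9.80 and 9.95 in Huh7.5.1 cells, against 11.02 and 10.82 in Hep3B cells, a difference of -1.04 ± 0.15. NDUFB5 differed by -1.04 ± 0.11. By module on the deposited scale, 1 gene was higher and 3 lower of the 5 of the ubiquinone module, with a median of -0.60. Of the 10 of the NADH module 3 were higher and 1 lower, with a median of 0.08. Among all genes tested 41% were higher and 22.9% lower. Centred over the genes tested, the ubiquinone module had 1 higher and 4 lower (median -0.81) and the NADH module 2 and 4 (median -0.13). The direction of the NADH module thus depended on the scaling.

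In complex II, SDHA read 9.76 and 9.68 in Huh7.5.1 cells, against 10.73 and 10.79 in Hep3B cells. The difference was -1.05 ± 0.12 (adjusted p = 6.33e-05), and the lines did not overlap. SDHD, an anchor that helps to bind ubiquinone, read 10.80 and 10.77 in Huh7.5.1 cells, against 10.18 and 10.03 in Hep3B cells, and was higher by 0.68 ± 0.13. That call was lost when arrays were centred over all probe sets (0.26). SDHC differed by 0.13 ± 0.11 and did not pass.

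In complex III, UQCRH, the acidic hinge protein next to cytochrome c1, read 12.82 and 12.69 in Huh7.5.1 cells, against 12.06 and 11.93 in Hep3B cells. It was higher by 0.76 ± 0.08 (adjusted p = 6.69e-05), without overlap. UQCRHL, a near-identical copy, was higher by 0.77 ± 0.17, a call lost with arrays centred over all probe sets (0.35), and signals of the pair cannot be told apart. UQCR10, a small subunit, was higher by 0.47 ± 0.09 and UQCRC1 by 0.41 ± 0.09. With arrays centred over all probe sets these were lost too, at 0.054 and -0.0086. UQCRC2, the second core protein, read 10.53 and 10.80 in Huh7.5.1 cells, against 11.29 and 11.22 in Hep3B cells, and was lower by 0.59 ± 0.13. CYC1, UQCR11 and UQCRB were lower in Huh7.5.1 cells, with differences of -0.36, -0.38 and -0.41. For UQCRB the direction depended on the probe set, since a dimmer one gave 0.90 (adjusted p = 0.00914) and the mean of its probe sets 0.71. The CYC1 call was lost without probe sets that can bind related sequences (-0.26).

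In complex IV the widely expressed subunits differed modestly. COX5A, the subunit at the matrix side, read 12.86 and 12.89 in Huh7.5.1 cells, against 12.41 and 12.41 in Hep3B cells, and was higher by 0.46 ± 0.07 (adjusted p = 0.000654). This was lost with arrays centred over all probe sets (0.04). COX7B, COX5B and COX7A2 were higher by 0.34, 0.27 and 0.23 on the deposited scale, and all 3 turned negative when arrays were centred over all probe sets. COX6B1 read 12.38 and 12.35 in Huh7.5.1 cells, against 12.92 and 12.82 in Hep3B cells, and was lower by 0.50 ± 0.09, keeping that direction under every scaling run. COX8A was lower by 0.44 ± 0.09. COX4I1, COX6A1 and COX7A2L differed by 0.14, -0.05 and 0.26 and did not pass.

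The isoforms restricted to other tissues were near or under the floor. COX6B2, the testis form, read 5.19 and 5.31 in Huh7.5.1 cells, against 6.20 and 6.20 in Hep3B cells. Its place among the tested genes came from Hep3B cells alone, so a difference is built into its selection, and against the floor the signal was at least 1.07-fold lower in Huh7.5.1 cells. COX6A2, the heart and muscle form, read 6.05 and 5.96 in Huh7.5.1 cells, against 6.13 and 6.35 in Hep3B cells, and did not pass the test. COX4I2, a lung form, read 4.95 to 5.42 over the 6 arrays, and COX7A1, a heart and muscle form, 3.94 to 4.39. COX7B2 read 2.44 to 3.11 and COX8C, a testis form, 3.15 to 4.66, so none of these 4 reached the floor in any group.

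In the ATP synthase, ATP5MC1, which encodes subunit c of the rotor ring, read 10.75 and 11.00 in Huh7.5.1 cells, against 10.08 and 10.13 in Hep3B cells. It was higher by 0.77 ± 0.12 (adjusted p = 0.000504), without overlap. ATP5MK, a small membrane subunit, was higher by 0.47 ± 0.09, a call lost with arrays centred over all probe sets (0.057). ATP5MJ read 10.64 and 10.71 in Huh7.5.1 cells, against 11.50 and 11.52 in Hep3B cells, and was lower by 0.83 ± 0.10. The ATP5MJ direction depended on the probe set, since another gave a difference of 0.38 that did not pass. ATP5F1D, the delta subunit of the central stalk, was lower by 0.62 ± 0.16 and ATP5ME by 0.31 ± 0.08. ATP5F1A and ATP5F1B differed by -0.10 and 0.22 and did not pass.

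Probe sets of 2 genes passed the test between the lines in opposite directions. For ATP5PB, subunit b of the peripheral stalk, the brightest probe set was higher in Huh7.5.1 cells by 0.76, a second by 0.78, and the other two were lower, with differences of -2.00 and -1.76. For NDUFB4, 2 probe sets with the same 6 values differed by -0.55 and another by 1.36. The direction of these 2 genes between the lines is therefore uncertain.

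Several genes past the CU27 test also differed between the lines. Both comparisons use the Huh7.5.1 DMSO arrays, so their values are not independent and are only set side by side. NDUFS3 differed by 0.37 with CU27 and by -1.34 between the lines. For NDUFB5 the values were 0.50 and -1.04, for SDHA 0.42 and -1.05, for COX6B1 0.44 and -0.50, and for ATP5MJ 0.33 and -0.83. NDUFV2, with -0.44 and 1.49, had the opposite pair of signs. UQCRC1 was higher in both, by 0.33 and 0.41. In CU27-treated cells COX6B1, at 12.71 and 12.92, overlapped the Hep3B arrays at 12.92 and 12.82. SDHA, NDUFS3 and NDUFB5 were still below both Hep3B arrays.

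**Figure D4:**
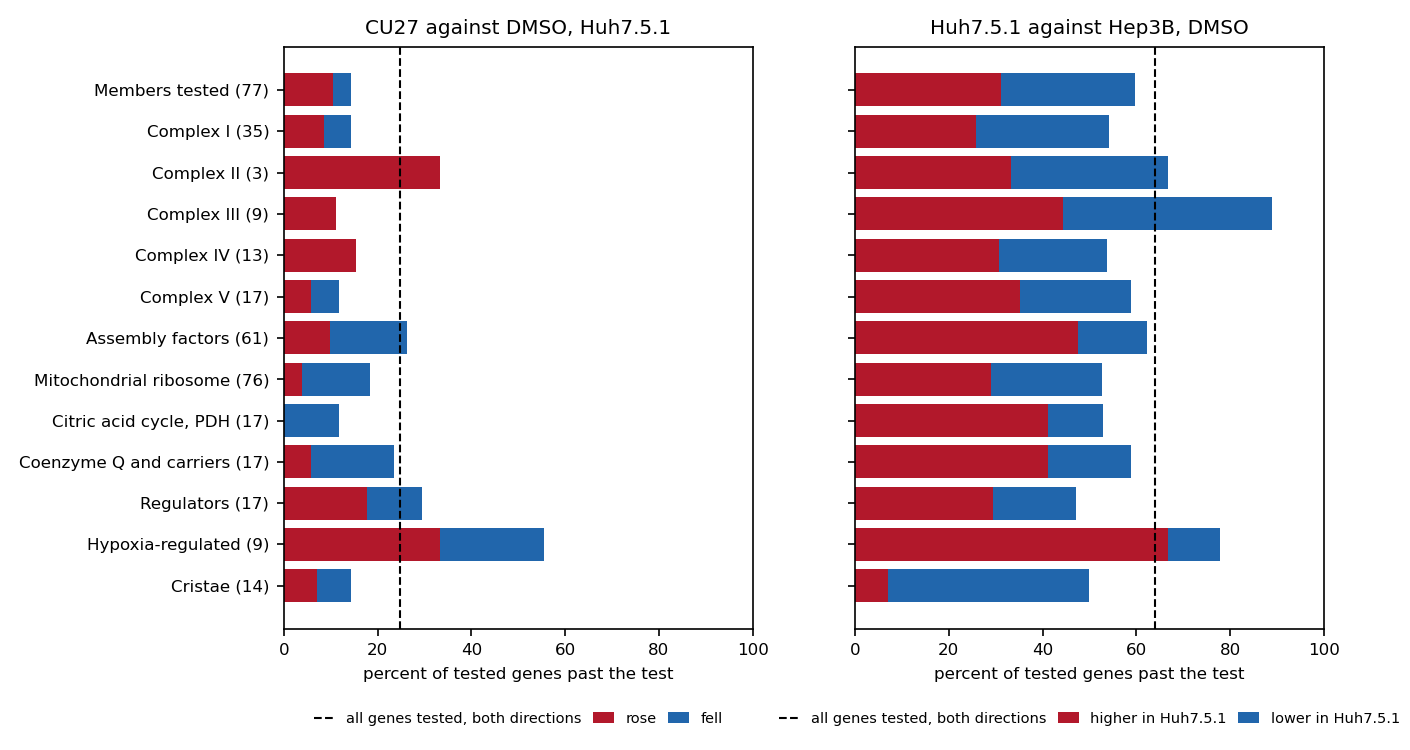
Share of tested genes past the limma test for the respiratory chain members, each complex and the related lists, with CU27 against DMSO on the left and Huh7.5.1 against Hep3B on the right. Red marks higher and blue lower genes, numbers in brackets are genes tested, and dashed lines mark all genes tested (24.7% and 64%). With CU27 the members reach 14.3% and the assembly factors 26.2%.

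Genes that assemble the complexes changed with CU27 about as often as genes in general. Of 61 assembly factors tested, 6 rose and 10 fell (26.2%), with a median difference of -0.12. Complex I assembly had 1 rise and 4 falls among 19 genes, complex II 0 and 0 among 4, complex III 1 and 0 among 8, complex IV 4 and 5 among 24, and ATP synthase 0 and 1 among 6. A test of the difference from the subunits themselves was not made.

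ACAD9, an acyl-CoA dehydrogenase that also serves in complex I assembly, had the largest fall on these lists. It read 7.19 and 6.86 in the CU27 arrays, against 8.07 and 8.27 in the DMSO arrays. The groups were far apart, and it fell by 1.14 ± 0.17 (adjusted p = 0.00239). NDUFAF3, which joins the ubiquinone module to the membrane, fell by 0.68 ± 0.13, whereas ECSIT, of the same assembly step as ACAD9, rose by 0.70 ± 0.18. In complex IV assembly COX14 and COX17, a copper chaperone, rose by 0.60 and 0.52, and COA5 and COX11, which also serves copper insertion, fell by 0.69 and 0.56. UQCC5 of complex III assembly rose by 0.61. ATP5IF1, the inhibitor of ATP hydrolysis by the ATP synthase, fell by 0.41 ± 0.09.

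Of the 13 mitochondrially encoded subunits, 3 had a probe set of a single symbol. COX3, a core subunit of complex IV, read 13.30 and 13.16 in the CU27 arrays, against 13.55 and 13.58 in the DMSO arrays, and fell by 0.33 ± 0.08 (adjusted p = 0.0192). ND1 and ND4, core subunits of complex I, differed by 0.09 and 0.09 and did not pass. Among 17 genes of coenzyme Q synthesis and mobile carriers 1 rose and 3 fell (23.5%, against 24.7% of all genes tested). ETFA and ETFDH, which carry electrons from fatty acid oxidation to ubiquinone, fell by 0.57 and 0.68. COQ10B, a coenzyme Q binding protein, rose by 0.48. CYCS, cytochrome c, differed by -0.21 and did not pass. COXFA4, a further subunit tied to complex IV, differed by 0.15 with CU27 and did not pass.

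Among 17 regulators of mitochondrial gene expression 3 rose and 2 fell (29.4%, against 24.7% of all genes tested). PPARGC1A, the coactivator PGC-1alpha, read 8.34 and 8.18 in the CU27 arrays, against 7.72 and 7.02 in the DMSO arrays. It rose by 0.89 ± 0.26 (adjusted p = 0.0352), with a wide gap between its DMSO arrays. POLG, the polymerase of mitochondrial DNA, rose by 0.81, while TWNK, the helicase, and SSBP1, the single-strand binding protein of the same replication machinery, fell by 0.74 and 0.59. NRF1 itself differed by -0.21 and did not pass.

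Between the lines, 29 assembly factors were higher and 9 lower in Huh7.5.1 cells of 61 (62.3%, against 64% of all genes tested). Their median was 0.33, or 0.11 relative to all genes. After centring over the genes tested the counts were 18 and 15. NUBPL, an iron-sulphur protein for complex I, read 10.55 and 10.41 in Huh7.5.1 cells, against 7.56 and 7.57 in Hep3B cells, a difference of 2.92 ± 0.13. In complex III assembly UQCC1 was higher by 2.53 and its partner UQCC2 lower by 1.90. UQCC1 was below the floor in Hep3B cells, at 5.53 and 5.19, so its fitted difference is not a measured fold.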

How the data were processed

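Biotin-labelled RNA, amplified with a 3′ IVT kit, was put on expression arrays, per the labels' protocols. The deposited table held log2 values of the authors for 49395 probe sets, the log base being read from the range of the values. MAS5 is named in the submitters' processing notes, and the scaling between arrays is stated in no source used here. Scanner files were not used here. The 102 array controls were left out. A single symbol was given to 44988 probe sets by the platform annotation, several to 1832 and none to 2473, and 44961 matched RefSeq by Entrez identifier.

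For each gene the probe set of highest mean was kept. Genes whose mean reached the floor, the 50th percentile of all values (log2 6.11), in at least 1 group were tested, 11383 in all. The 6 arrays were fitted with limma 3.58.1 in R 4.3.3 (lmFit, contrasts, eBayes with trend), with 3 residual and 5.87 prior degrees of freedom, and two-sided p-values were adjusted by Benjamini-Hochberg over all genes tested. With 2 arrays in each of 2 groups, the smallest p of an exact permutation test is 0.333, and no such test was run. The number of arrays limits the precision, and p-values measure only the spread between these samples. The Hep3B CU27 columns were left out. The fit was tested on simulated data.

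Members and gene lists were chosen with earlier results of these data known. Named genes were, in each comparison and complex, up to 3 members each way with the largest differences among those past the test whose arrays do not overlap, the main catalytic subunits and isoform pairs, up to 2 genes each way of each list by smallest p, and members with probe sets in opposite directions. Same-numbered Huh7.5.1 arrays deviated together with a correlation of 0.179, over 2 pairs only, so the numbers were not treated as pairs. The alternatives tried were other scalings, floors and probe set rules, a fit of 4 arrays, no trend, a replicate block, and leaving out each array.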

Additional observations from a re-analysis of the deposited data

How the results depend on the processing

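Limits are set by 2 arrays a group, an unstated scaling between the lines and the choice of probe set. With CU27, 8 members rose and 3 fell. Leaving out 1 array, the lone one assumed to vary like the other groups, gave 1 to 8 rises and 0 to 3 falls, the lowest of both without the second Huh7.5.1 DMSO array. Rises numbered 4 with the mean of all probe sets of a gene, 5 without probe sets whose type can bind related sequences, 5 in the fit of the 4 arrays compared and 4 without the trend. Falls numbered 1 in the fit of the 4 arrays and 1 without the trend. With the replicate number as a block, 3 rose. Probe sets tested singly gave 6 falls with CU27, and 51 higher and 39 lower between the lines, since a gene can count more than once. Centring over the genes tested was added after seeing the data. Between the lines, the counts of 24 higher and 22 lower became 9 and 45 with arrays centred over all probe sets, 34 lower after quantile normalization, 36 lower centred over the genes tested, and 14 higher without probe sets whose type can bind related sequences.

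The median CU27 difference of a complex stayed between -0.10 and 0.19. When 1 array was left out it ran from 0.021 to 0.17 for complex II, from -0.0039 to 0.090 for complex IV and from -0.099 to 0.027 for complex V. With the replicate block it was 0.19, 0.079 and -0.086 for complexes II, IV and V. The mean of probe sets gave -0.0089, 0.083 and -0.063 for complexes III, IV and V. Leaving out probe sets that can bind related sequences gave 0.16, -0.027, 0.060 and -0.082 for complexes II to V, and centring over the genes tested -0.0015 for complex IV.

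Between the lines, the medians of complexes I to V were -0.52, -0.29, -0.59, -0.28 and -0.27 with arrays centred over all probe sets, -0.28, -0.034, -0.36, -0.042 and -0.0045 after quantile normalization, and -0.31, -0.075, -0.38, -0.062 and -0.056 centred over the genes tested. The mean of probe sets gave 0.048, 0.047, 0.47 and 0.12 for complexes I to IV, and leaving out probe sets that can bind related sequences -0.021, -0.0026 and -0.097 for complexes II, IV and V. Complex IV had 0.23 with no floor and 0.17 with the floor at the 75th percentile. When 1 array was left out the medians ran from -0.16 to -0.030, from 0.057 to 0.20, from -0.29 to -0.058, from 0.11 to 0.15 and from 0.084 to 0.17 for complexes I to V.

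Single genes turned sign between the lines with arrays centred over all probe sets, where COX7B had -0.078, COX5B -0.14, UQCRC1 -0.0086, COX7A2 -0.19, SDHAF2 -0.081 and ND4 -0.10. With the mean of probe sets UQCRB had 0.71, ATP5PB -0.56, ATP5MJ 0.16, ACAD9 0.17, COA3 0.31 and NDUFB4 0.089. Without probe sets that can bind related sequences ATP5PB had -2.00, ATP5MJ 0.38 and CYCS -0.16, and MRPL20 turned to 0.42 with CU27. Apart from the scalings and the choice of probe set, whose own construction moves these values, the cause was not tested.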

Other observations

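The genes of the mitochondrial ribosome, which translates the mitochondrially encoded subunits, included 3 that rose and 11 that fell with CU27 of 76 tested (18.4%), against 24.7% of all genes tested, with a median difference of -0.08. MRPL20 read 10.41 and 10.46 in the CU27 arrays, against 11.21 and 11.26 in the DMSO arrays, and fell by 0.80 ± 0.10, although another probe set gave 0.42. MRPL57 fell by 0.61, while MRPL55 and MRPS30 rose by 0.50 and 0.51. Of 17 genes of the citric acid cycle and pyruvate dehydrogenase 2 fell and none rose (11.8%, against the same 24.7%). DLD, which regenerates the lipoamide of pyruvate dehydrogenase, fell by 0.52 and IDH3A, of the NAD-dependent isocitrate dehydrogenase, by 0.55.

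Among 9 hypoxia-regulated mitochondrial genes 3 rose and 2 fell with CU27 (55.6%, against 24.7% of all genes tested). PDK1, the kinase that switches off pyruvate dehydrogenase, read 9.16 and 9.83 in the CU27 arrays, against 7.38 and 7.46 in the DMSO arrays, and rose by 2.07 ± 0.21. BNIP3, a mitophagy receptor, rose by 1.27 ± 0.14, and its relative BNIP3L, named after its value was seen, by 1.35 ± 0.17. LONP1, a protease of the mitochondrial matrix, fell by 0.69 and FUNDC1, another mitophagy receptor, by 0.47. COXFA4L2, an isoform of COXFA4 known as a hypoxia target, stayed below the floor in all groups. Of 14 cristae and supercomplex genes 1 rose and 1 fell (14.3%, against 24.7% of all genes tested). CRLS1, the cardiolipin synthase, rose by 0.56, and STOML2 fell by 0.42.

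Between the lines in DMSO, the mitochondrial ribosome had 22 genes higher and 18 lower in Huh7.5.1 cells, against a background of 41% higher and 22.9% lower, and centring over the genes tested made this 13 and 27. The citric acid cycle list had 7 higher and 2 lower, or 5 and 3 after that centring, with DLD higher by 1.37. Of the cristae genes 1 was higher and 6 lower, or 0 and 7 after centring, with MICOS13, a subunit of the cristae junction complex, at a difference of -1.28. The hypoxia-regulated list had 6 higher and 1 lower, PDK1, which read 7.38 and 7.46 in Huh7.5.1 cells, against 8.33 and 8.53 in Hep3B cells.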
